A study of Mus musculus with 6 samples.

Results

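Small leucine-rich proteoglycans are secreted matrix proteins whose horseshoe-shaped core of leucine-rich repeats binds collagen fibrils, and most of them carry chondroitin, dermatan or keratan sulfate chains. They set the spacing and thickness of collagen fibrils, and several bind transforming growth factor beta. Versican is a much larger proteoglycan that binds hyaluronan and builds a loose, hydrated matrix. In liver these genes are known mainly from stellate cells and portal fibroblasts, the cells that lay down scar matrix. The genes described here are the decorin (Dcn), biglycan (Bgn) and asporin (Aspn) genes of one class, the fibromodulin (Fmod), lumican (Lum), Prelp and osteomodulin (Omd) genes of another, osteoglycin (Ogn), podocan (Podn) and versican (Vcan). They were chosen by gene name, and 10 of the 55401 genes in the deposited table matched, 1 entry for each name.

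Liver RNA was sequenced from 6 male mice, 3 in each of 2 genotypes. The Prdx1(lox/lox);Alb-cre mice, called Alb-cre below, carry floxed Prdx1 alleles together with Cre recombinase under the albumin promoter, which acts in hepatocytes. The Prdx1(lox/lox) mice, called lox/lox below, carry the same floxed alleles with no Cre named in their labels. All mice started at 8 weeks of age on MCD, an abbreviation that is not spelled out in the sample descriptions and that commonly denotes a methionine- and choline-deficient diet, and stayed on it for 5 weeks. Prdx1 encodes a peroxide-reducing enzyme, and the comparison asks how liver gene expression on this diet differs when it is deleted in hepatocytes. No Alb-cre mice without floxed alleles and no other diet were analysed here, so the effect of Cre itself and a difference present without the diet cannot be told apart from the loss of Prdx1 on MCD.

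Deposited counts per library totalled 58790874 to 78291273 in Alb-cre livers and 63189210 to 67319086 in lox/lox livers. They are estimated counts, and low values pile up at multiples of 4, so a read pair was worth about 4 deposited counts. Prdx1 stood at 78.7, 111 and 75.4 CPM (counts scaled by library size and TMM factors) in Alb-cre livers, against 644, 570 and 663 CPM in lox/lox livers, the direction the labels give. Genes were called with the quasi-likelihood test of edgeR at a Benjamini-Hochberg adjusted p under 0.05, and all adjusted p-values below come from it unless another test is named. Of 18931 tested genes, 3767 were higher in Alb-cre livers and 3415 lower. That split depended on library scaling: with library sizes alone it was 6459 higher and 1249 lower, and the median over all genes, in log2 fold change, was 0.41 in place of 0.05. The hepatocyte markers fixed for the check of the tissue, all 8 of them lower, still summed to 24660 to 29230 FPKM (the authors' value scaled by transcript length and depth) in Alb-cre livers and 33660 to 40910 FPKM in lox/lox livers.

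Of the 10 genes, 9 had enough counts to be tested. Dcn, Bgn, Lum, Fmod, Ogn, Prelp, Podn and Vcan were higher in Alb-cre livers, and Omd was lower. Higher calls were made for 19.9% of all tested genes and lower calls for 18.0%. All 8 that rose did so at least 2-fold, as 12.3% of all tested genes did, and Omd fell by more than 2-fold, as 3.83% did. The levels of the 2 groups did not overlap for any of the 9 genes; among all tested genes, 28.8% were higher and 24.2% lower without overlap. Aspn was too low to be tested. The median log2 fold change of the 9 tested genes was 1.51, against 0.05 for all tested genes.

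**Figure D1:**
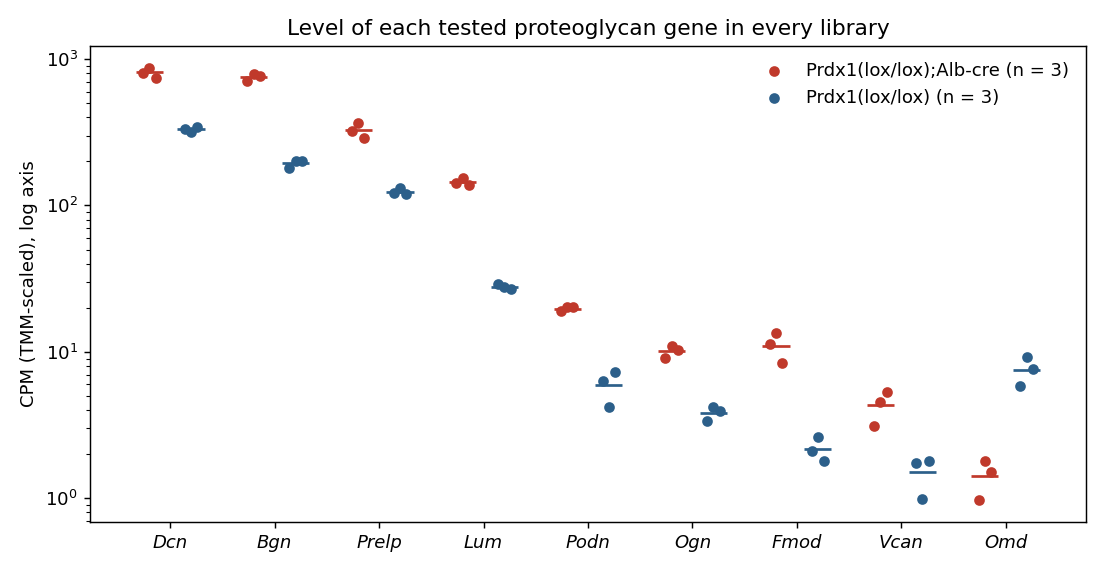
CPM on a log axis for the 9 tested genes, one point per library and a line at the mean, with Prdx1(lox/lox);Alb-cre on the left of each pair and Prdx1(lox/lox) on the right. The Alb-cre points lie above the lox/lox points for 8 genes and below them for Omd.

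Decorin, which coats collagen fibrils and binds transforming growth factor beta, had the highest FPKM of the 10 transcripts in every library. Dcn (ENSMUSG00000019929, chromosome 10, 97479609 to 97518143, plus strand, GRCm38) stood at 144, 156 and 127 FPKM in Alb-cre livers, against 46.1, 43.1 and 47.4 FPKM in lox/lox livers. The lowest Alb-cre library was thus well above the highest lox/lox library. In CPM the means were 809 ± 63.5 in Alb-cre livers and 330 ± 12.7 in lox/lox livers (SD, n = 3 each), a log2 fold change of 1.29 ± 0.09 (SE) with an adjusted p of 7.1e-05. This was the smallest rise among the 8 genes in the edgeR test. On the log2(FPKM + 0.5) scale the rise of Dcn was 1.63, above those of Ogn (1.41) and Vcan (0.46).

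Biglycan is the closest relative of decorin and, when set free from the matrix, is known to signal through Toll-like receptors. Bgn (ENSMUSG00000031375, chromosome X, 73483602 to 73495933, plus strand) stood at 708, 789 and 761 CPM in Alb-cre livers, against 179, 200 and 201 CPM in lox/lox livers. All Alb-cre libraries were high and close to each other, and the log2 fold change was 1.96 ± 0.09 (SE, adjusted p = 1.86e-05). Asporin, a relative of decorin known from cartilage and tendon, was close to absent. Aspn had 0, 8 and 30 deposited counts in Alb-cre livers, against 8, 19 and 4 in lox/lox livers. The groups overlapped, and at this depth no difference was detectable.

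Lumican and fibromodulin, a pair of keratan sulfate proteoglycans that bind the same region of collagen I, had the largest rises in the edgeR test. Lum (ENSMUSG00000036446, chromosome 10, 97565128 to 97572703, plus strand) stood at 142, 153 and 137 CPM in Alb-cre livers, against 29.1, 27.6 and 27.1 CPM in lox/lox livers. Its log2 fold change was 2.37 ± 0.09 (SE, adjusted p = 1.11e-05), or 5.16-fold between the means. Fmod (ENSMUSG00000041559, chromosome 1, 134037254 to 134048277, plus strand) was less abundant per length, at 3.43 ± 0.861 against 60.4 ± 4.88 FPKM for Lum in Alb-cre livers (SD, n = 3 each). It had 11.3, 13.4 and 8.39 CPM in Alb-cre livers, against 2.09, 2.63 and 1.80 CPM in lox/lox livers. Even its lowest Alb-cre library lay above every lox/lox library, and its log2 fold change was 2.34 ± 0.24 (SE, adjusted p = 0.000359).

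Prelp, which lacks the usual sugar chains and anchors basement membranes to collagen through a heparin-binding end, was abundant. Prelp (ENSMUSG00000041577, chromosome 1, 133910304 to 133921414, minus strand) stood at 321, 366 and 288 CPM in Alb-cre livers, against 122, 131 and 120 CPM in lox/lox livers. The groups were far apart, with a log2 fold change of 1.39 ± 0.11 (SE, adjusted p = 0.000104).

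Osteoglycin, also called mimecan, and podocan were found at low levels and rose. Ogn (ENSMUSG00000021390, chromosome 13, 49608046 to 49624501, plus strand) stood at 9.08, 10.9 and 10.4 CPM in Alb-cre livers, against 3.37, 4.17 and 3.97 CPM in lox/lox livers. Podn (ENSMUSG00000028600, chromosome 4, 108014791 to 108032337, minus strand), whose product restrains smooth muscle growth, stood at 18.9, 20.3 and 20.1 CPM in Alb-cre livers, against 6.28, 4.22 and 7.29 CPM in lox/lox livers. For both genes every Alb-cre library exceeded every lox/lox library. The log2 fold changes were 1.40 ± 0.17 for Ogn (SE, adjusted p = 0.000643) and 1.74 ± 0.20 for Podn (SE, adjusted p = 0.000618).

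Versican was the lowest of the tested genes per unit of length. Vcan (ENSMUSG00000021614, chromosome 13, 89655312 to 89742509, minus strand) stood at 3.10, 4.54 and 5.29 CPM in Alb-cre livers, against 1.75, 0.991 and 1.80 CPM in lox/lox livers. In FPKM this was 0.222 to 0.362 in Alb-cre livers and 0.0532 to 0.0993 in lox/lox livers. The groups did not overlap but the libraries of each spread widely, and the log2 fold change of 1.51 ± 0.33 (SE, adjusted p = 0.00909) had the largest adjusted p of the rises; without Alb-cre replicate 3 the adjusted p was 0.0367. On the log2(FPKM + 1) scale the log2 difference was 0.27. Vcan overlaps the antisense gene model Gm4117, which had 50, 47 and 34 counts in Alb-cre livers, against 15, 0 and 19 in lox/lox livers, beside 210 to 448 counts for Vcan in Alb-cre livers and 58 to 105 in lox/lox livers.

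Osteomodulin, an acidic keratan sulfate proteoglycan best known from bone, went the other way. Omd (ENSMUSG00000048368, chromosome 13, 49582462 to 49592822, plus strand) had 66, 163 and 128 deposited counts in Alb-cre livers, against 328, 540 and 445 in lox/lox livers. That was 0.973, 1.80 and 1.51 CPM in Alb-cre livers, against 5.85, 9.23 and 7.61 CPM in lox/lox livers, so the highest Alb-cre library was far below the lowest lox/lox library. The log2 fold change was -2.40 ± 0.30 (SE, adjusted p = 0.000765), and it ranged from -2.60 to -1.17 over the 16 alternative fits with edgeR, limma or DESeq2, whose adjusted p-values reached 0.00383.

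**Figure D2:**
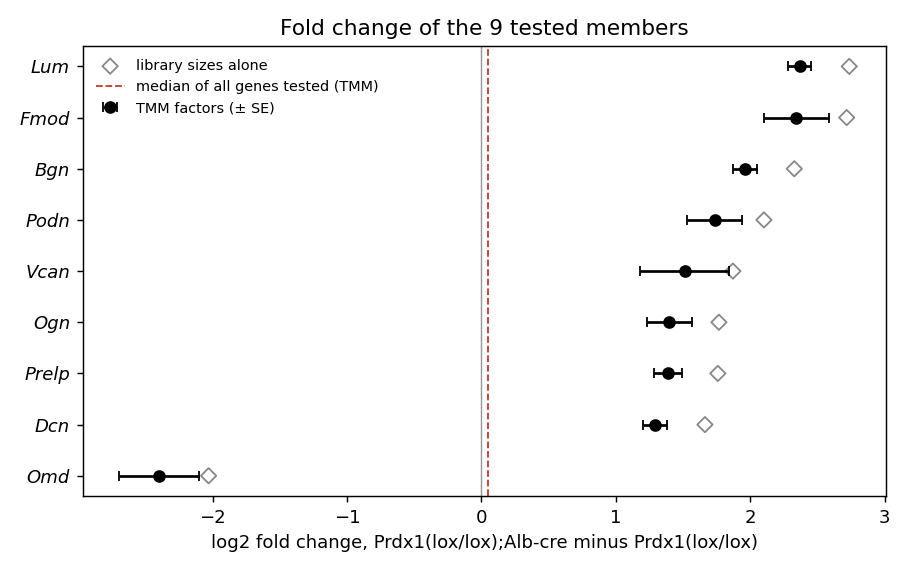
Log2 fold change of Prdx1(lox/lox);Alb-cre over Prdx1(lox/lox) for the 9 tested genes (filled points, TMM factors, bars ± SE), with the value from library sizes alone (open diamonds) and the median of all tested genes (dashed line, 0.05). The 8 rises run from 1.29 for Dcn to 2.37 for Lum, Omd lies at -2.40, and no gene changes side with the scaling.

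A change of scaling factors shifts the log2 fold changes of all genes by about the same amount. Distances from the all-gene median are therefore nearly fixed by construction. Taken from the all-gene median, the log2 fold change of Dcn was 1.25 with TMM factors and 1.25 with library sizes alone. That of Lum was 2.32 under both, and that of Omd was -2.45 under both. On the log2(FPKM + 0.5) scale, which understates changes of low genes, the same difference was 2.41 for Lum, -1.73 for Omd and 0.21 for Vcan.

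Omd lies in a row of related genes on chromosome 13 that moved in different directions. Ecm2, Aspn, Omd and Ogn follow each other on the plus strand within 119692 bp. Ecm2, which encodes a matrix protein with the same kind of repeats, stood at 5.81 ± 0.474 CPM in Alb-cre livers and 1.73 ± 0.388 CPM in lox/lox livers (SD, n = 3 each), a log2 fold change of 1.75 ± 0.24 (SE, adjusted p = 0.00111). Ecm2 and Ogn at both ends of the row thus rose, Omd between them fell, and Aspn was hardly detected. The ratio of Omd to Ogn, in FPKM within a library and chosen after the fall of Omd was seen, was 0.119, 0.188 and 0.165 in Alb-cre livers, against 1.98, 2.53 and 2.19 in lox/lox livers. Omd was therefore the more abundant of the pair in every lox/lox liver and the less abundant in every Alb-cre liver.

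Ecm2, Aspn, Omd and Ogn all lie inside Cenpp, a centromere protein gene on the minus strand. Whether the authors' counting used strand is not given in the sources used here, so reads of Cenpp could be counted for them. Cenpp itself had 0, 54 and 38 counts in Alb-cre livers, against 18, 26 and 60 in lox/lox livers, and did not pass the test (adjusted p = 0.659 in edgeR). Beside these stand the 66 to 163 counts of Omd in Alb-cre livers and 328 to 540 in lox/lox livers, and the 0 to 30 counts of Aspn in Alb-cre livers and 4 to 19 in lox/lox livers. Ecm2 had 391, 572 and 454 counts in Alb-cre livers, against 94, 80 and 125 in lox/lox livers. The part of Cenpp reads in these counts was not tested.

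**Figure D3:**
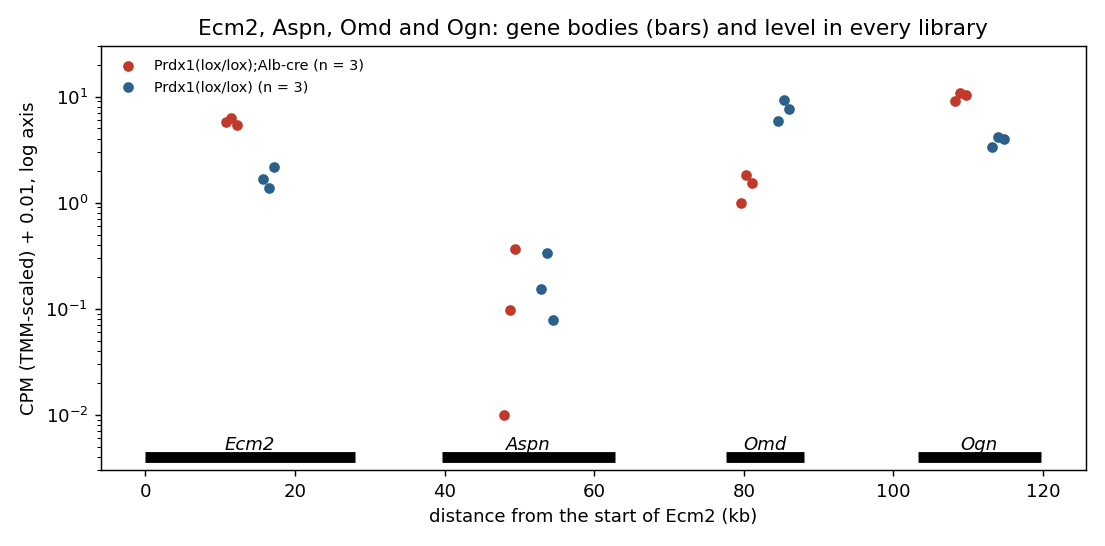
Gene bodies of Ecm2, Aspn, Omd and Ogn (black bars) by distance in kb from the start of Ecm2, with CPM + 0.01 in every library on a log axis, Prdx1(lox/lox);Alb-cre to the left of each bar's centre and Prdx1(lox/lox) to the right. Alb-cre libraries are higher for Ecm2 and Ogn, lower for Omd, and mixed with lox/lox libraries for Aspn.

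The sequences just upstream of the opposed neighbours Omd and Ogn, and of Bgn, a gene that rose with Ogn, are shown to set the start regions side by side. They come from RefSeq (GRCm38.p6), run from 250 bases before the annotated start to 50 bases after it, and are written on the plus strand, on which all of these genes lie. The Omd window is chr13:49582212-49582511, the Ogn window chr13:49607765-49608064 and the Bgn window chrX:73483351-73483650. Capitals mark matches on either strand to TGANTCA (the AP-1 motif), CAGAC (a SMAD half-site), TATAAA (the TATA box) or GGGCGG (the GC box).
Omd: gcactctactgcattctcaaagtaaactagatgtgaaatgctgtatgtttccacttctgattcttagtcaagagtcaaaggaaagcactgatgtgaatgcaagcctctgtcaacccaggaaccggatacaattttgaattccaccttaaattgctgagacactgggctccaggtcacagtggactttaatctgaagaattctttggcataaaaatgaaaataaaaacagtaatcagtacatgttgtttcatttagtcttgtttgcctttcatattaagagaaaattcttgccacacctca
Ogn: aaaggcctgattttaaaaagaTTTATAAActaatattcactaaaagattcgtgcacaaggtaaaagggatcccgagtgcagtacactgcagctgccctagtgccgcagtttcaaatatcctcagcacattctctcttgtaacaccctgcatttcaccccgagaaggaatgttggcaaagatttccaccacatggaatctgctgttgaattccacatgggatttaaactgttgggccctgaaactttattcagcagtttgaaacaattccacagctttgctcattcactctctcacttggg
Bgn: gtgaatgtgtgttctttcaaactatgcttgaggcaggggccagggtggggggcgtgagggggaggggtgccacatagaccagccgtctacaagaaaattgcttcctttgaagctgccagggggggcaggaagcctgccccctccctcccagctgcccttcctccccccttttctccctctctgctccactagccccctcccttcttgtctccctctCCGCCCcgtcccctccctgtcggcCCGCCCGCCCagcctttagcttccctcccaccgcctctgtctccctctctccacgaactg

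The Omd window held no match to these letters. The Ogn window held 2 overlapping TATAAA matches, one on each strand, far upstream of the annotated start at -229 and -227. The Bgn window held 3 GGGCGG matches near the start, of which 2 overlapped, and its GC content was 63.7%, against 37.7% for Omd, 42.3% for Ogn and a median of 52.7% over all 32851 windows. The table held windows for 8 of the 10 genes, without Dcn and Lum. Among all windows, TGANTCA occurred in 7.81%, CAGAC in 49.6%, TATAAA in 13.6% and GGGCGG in 35.7%, and no window of the 8 genes held TGANTCA. A match describes letters in this window, not a site.

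The other rows of related genes held silent or barely detected neighbours beside genes that could be tested. On chromosome 10, Dcn, Lum, Kera and Epyc lie in that order within 202846 bp, and Kera (keratocan of the cornea) and Epyc (epiphycan of cartilage) had no counts in any library. On chromosome 1, Optc (opticin of the eye) lies beside Prelp and had 0, 4 and 5 counts in Alb-cre livers, against 19, 0 and 28 in lox/lox livers, too few to test. The neighbours Dcn and Lum had log2 fold changes of 1.29 and 2.37, and Prelp and Fmod, which lie on opposite strands, of 1.39 and 2.34.

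Expressed per length, 4 transcripts made up nearly all of this proteoglycan RNA. The summed FPKM of the 10 genes was 430, 477 and 397 in Alb-cre livers, against 112, 113 and 116 in lox/lox livers. Dcn took 32.7% ± 0.740 of the sum in Alb-cre livers and 40.1% ± 1.62 in lox/lox livers (SD, n = 3 each). Lum took 13.9% ± 0.188 in Alb-cre livers and 8.08% ± 0.470 in lox/lox livers. Bgn took 29.2% ± 1.69 in Alb-cre livers and 22.5% ± 0.979 in lox/lox livers, and Prelp took 21.2% ± 1.20 in Alb-cre livers and 24.4% ± 1.11 in lox/lox livers. The Alb-cre mixture thus held proportionally more Lum and Bgn and less Dcn and Prelp, with ranges that did not overlap between the groups.

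**Figure D4:**
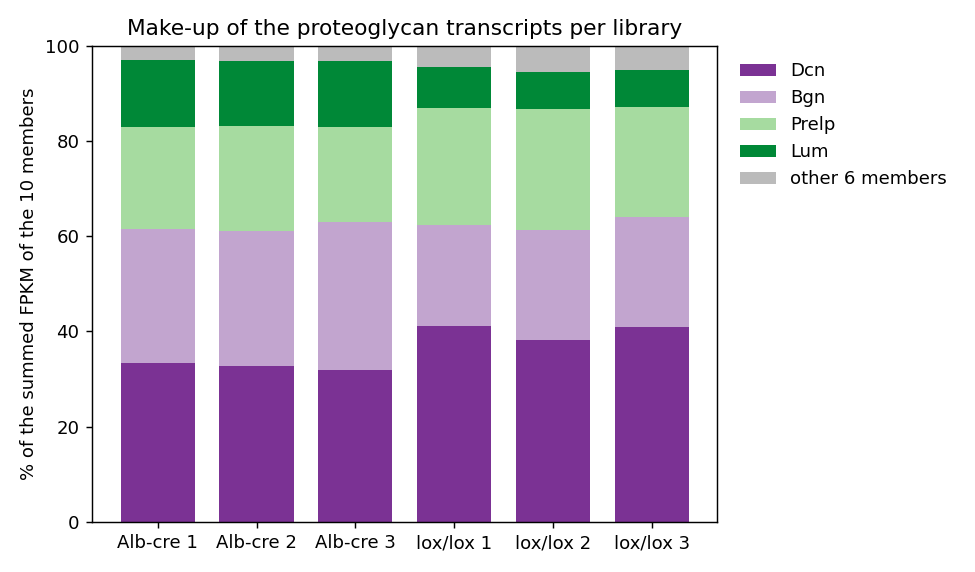
Share of the summed FPKM of the 10 genes taken by Dcn, Bgn, Prelp, Lum and the other 6 in each library, Prdx1(lox/lox);Alb-cre libraries on the left. Dcn takes 32.0% to 33.4% in Alb-cre libraries and 38.2% to 41.1% in lox/lox libraries.

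The order of the levels also differed. In Alb-cre livers it ran Dcn, Bgn, Prelp, Lum, Podn, Ogn, Fmod, Omd, Vcan and Aspn. In lox/lox livers it ran Dcn, Prelp, Bgn, Lum, Omd, Ogn, Podn, Fmod, Vcan and Aspn. Some neighbours had ranges that overlapped across libraries. These were Dcn with Bgn and Ogn with Fmod in Alb-cre livers, and Ogn with Podn and Vcan with Aspn in lox/lox livers. Within every single Alb-cre library, however, Dcn was above Bgn and Ogn above Fmod. The order of the overlapping lox/lox pairs changed between libraries. Omd held place 8 in Alb-cre livers and place 5 in lox/lox livers. Within Alb-cre livers, replicate 2 had the highest CPM for 8 of the 9 tested genes. In lox/lox livers the highest value was spread over the replicates, with 1, 4 and 4 genes.

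Ratios within a library do not depend on scaling, and 12 of them were compared by exact two-sided permutation tests, in which 3 against 3 cannot go below p = 0.1. The ratio of Lum to Dcn was 0.420, 0.418 and 0.438 in Alb-cre livers, against 0.210, 0.208 and 0.188 in lox/lox livers (exact p = 0.1, adjusted p = 0.15 over the 12 ratios). The ratio of Bgn to Dcn was 0.893 ± 0.0712 in Alb-cre livers and 0.561 ± 0.0416 in lox/lox livers (SD, n = 3 each, exact p = 0.1). The ratio of Prelp to Fmod was 27.5 ± 3.41 in Alb-cre livers and 53.8 ± 8.23 in lox/lox livers (exact permutation p = 0.1). None of these ratios overlapped between the groups, so Lum and Bgn were higher relative to Dcn, and Prelp lower relative to its neighbour Fmod, in every Alb-cre liver, although this design cannot take the exact test under 0.05.

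Ogn and Vcan could not be separated from Dcn in this way. The ratio of Ogn to Dcn was 0.0285 ± 0.00298 in Alb-cre livers and 0.0264 ± 0.00334 in lox/lox livers (SD, n = 3 each, exact p = 0.5), and that of Vcan to Dcn also overlapped (exact p = 0.7). The difference in the log2 ratio of Vcan to Dcn was 0.25, and it was -0.0065 without lox/lox replicate 2.

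Set against collagen, the ratio of decorin was lower in every Alb-cre liver, and that of lumican overlapped. The ratio of Dcn to Col1a1, a chain of collagen I, was 3.68, 4.11 and 3.50 in Alb-cre livers, against 12.03, 6.70 and 8.09 in lox/lox livers (exact p = 0.1). The ratio of Dcn to Col3a1, the collagen III chain, was 2.52, 2.87 and 2.68 in Alb-cre livers, against 5.35, 3.43 and 3.92 in lox/lox livers (exact p = 0.1). The groups did not overlap for either ratio. The ratio of Lum to Col1a1 was 1.60 ± 0.104 in Alb-cre livers and 1.81 ± 0.618 in lox/lox livers, with overlap (SD, n = 3 each, exact p = 1), and its small difference turned sign without lox/lox replicate 1.

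Similar ratios were taken to Pdgfrb, a growth factor receptor of stellate cells and other pericytes. The ratio of Dcn to Pdgfrb was 7.54, 6.98 and 6.51 in Alb-cre livers, against 15.6, 12.5 and 12.1 in lox/lox livers (exact permutation p = 0.1). The ratio of Lum to Pdgfrb was 2.98 ± 0.167 in Alb-cre livers and 2.71 ± 0.503 in lox/lox livers (SD, n = 3 each, exact p = 0.5). Every Alb-cre liver had less Dcn per unit of Pdgfrb than any lox/lox liver, while the Lum ratios overlapped.

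**Figure D5:**
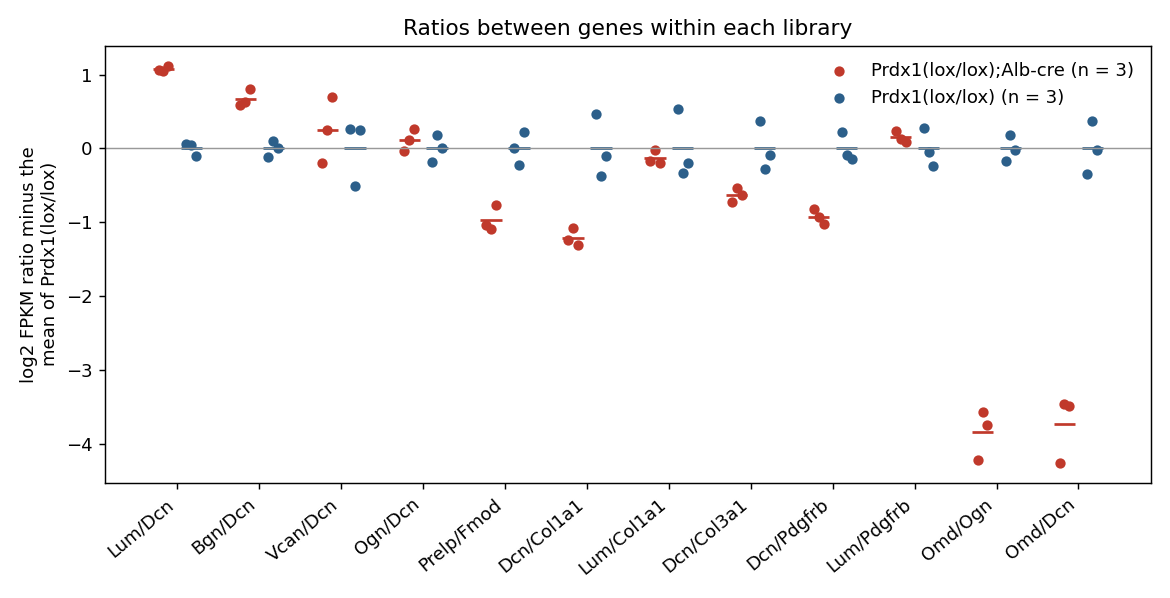
Log2 ratio of 2 genes' FPKM within each library, minus the mean of the Prdx1(lox/lox) libraries, for the 12 ratios, with Prdx1(lox/lox);Alb-cre on the left of each pair and a line at each mean. Alb-cre libraries lie higher for Lum/Dcn and Bgn/Dcn, lower for Dcn over Col1a1, Col3a1 and Pdgfrb, and lowest for the Omd ratios.

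Many cell type markers also differed between the groups, not all in the same direction. In liver RNA a change in the number of cells of a type and a change in RNA per cell cannot be told apart. All 11 tested of 12 portal fibroblast and fibroblast markers rose, where 19.9% of all tested genes did, with a median log2 fold change of 2.72. Leaving out 1 library gave 8 to 11 higher and 0 lower. The summed FPKM of these markers was 178 to 189 in Alb-cre livers and 29.2 to 43.7 in lox/lox livers. Pdgfra stood at 136 ± 13.9 CPM in Alb-cre livers and 20.2 ± 0.507 CPM in lox/lox livers, and Dpt, encoding the collagen-binding dermatopontin, at 51.1 ± 1.91 CPM in Alb-cre livers and 7.10 ± 2.39 CPM in lox/lox livers (SD, n = 3 each). The stem cell antigen Cd34 rose by 3.22 and the elastic fibre gene Fbln5 by 1.49 on the log2 scale, and Mfap5 had no counts in any library.

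Stellate cell markers were mixed. Among the 12, 8 were higher, 3 were lower and Lrat did not pass, where 19.9% of all tested genes were higher and 18.0% lower. Leaving out 1 library gave 6 to 9 higher and 3 lower. The summed FPKM of these markers was 175 to 223 in Alb-cre livers and 69.4 to 72.9 in lox/lox livers. Cygb rose by 2.77, Pdgfrb by 2.21 and Hand2 by 1.53 on the log2 scale. Colec10, a lectin gene of stellate cells, stood at 8.78 ± 1.78 CPM in Alb-cre livers and 41.9 ± 5.18 CPM in lox/lox livers (SD, n = 3 each, adjusted p = 0.000124 in edgeR). The part of these cells in the rise or fall of any proteoglycan gene was not tested.

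Other cell types were checked in the same way, beside shares of 19.9% higher and 18.0% lower over all tested genes. Of 7 tested smooth muscle markers 4 rose and 0 fell, and their summed FPKM was 45.6 to 74.8 in Alb-cre livers and 20.0 to 23.1 in lox/lox livers. Of 7 tested mesothelial markers 3 were higher (Wt1, Gpm6a and Krt7) and 2 lower, and the defining genes Msln and Lrrn4 did not pass. Krt7 is also one of the cholangiocyte markers. The median log2 fold change of the mesothelial markers was -0.95, or 1.34 with the stricter filter on low counts. The lower count was 0 without Alb-cre replicate 2, 1 without Alb-cre replicate 1, lox/lox replicate 1 or lox/lox replicate 3, 1 with the replicate block, and 3 without Alb-cre replicate 3. Their sum was 5.77 to 7.32 FPKM in Alb-cre livers and 2.14 to 3.39 in lox/lox livers. All 8 cholangiocyte markers rose, with a sum of 633 to 744 FPKM in Alb-cre livers and 25.4 to 34.3 in lox/lox livers. Of 10 macrophage and monocyte markers 9 rose, with a sum of 964 to 1049 FPKM in Alb-cre livers and 312 to 350 in lox/lox livers. Of 8 endothelial markers 3 rose and 1 fell, or 5 and 0 with library sizes alone. Their sums were 78.0 to 90.9 FPKM in Alb-cre livers and 65.3 to 72.3 in lox/lox livers. FPKM sums carry no TMM factors. The median log2 fold change of the endothelial markers was 0.12 with TMM factors and 0.49 with library sizes alone. The part of these cell types in the proteoglycan changes was not tested.

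The remaining relatives of the family were mixed. Of 9 other small leucine-rich proteoglycan genes 6 were tested, of which Ecm2 rose and Tsku and Chad fell. Tsku, which encodes the secreted tsukushi protein that liver is known to release, stood at 85.5 ± 24.5 CPM in Alb-cre livers and 403 ± 28.6 CPM in lox/lox livers (SD, n = 3 each), a log2 fold change of -2.24 ± 0.21 (SE, adjusted p = 0.000236). Chad, encoding chondroadherin, stood at 2.63 ± 0.0694 CPM in Alb-cre livers and 6.62 ± 1.15 CPM in lox/lox livers (log2 fold change -1.33 ± 0.20, SE, adjusted p = 0.00176). Nyx, Chadl and Podnl1 did not pass. Omd was thus one of 3 tested genes of the wider family that fell. Over all tested genes, 19.9% were called higher and 18.0% lower, so a few lower calls do not set this family apart.

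Enzymes that build the sugar chains of decorin, biglycan and versican rose in part. Among 16 chondroitin and dermatan sulfate genes 8 were higher and 1 lower, or 10 and 0 with library sizes alone. With TMM factors, 19.9% of all tested genes were higher and 18.0% lower. The median log2 fold change of the 16 genes was 0.96, against 0.05 for all genes. The polymerising enzyme gene Chsy1 stood at 17.4 ± 1.73 CPM in Alb-cre livers and 7.58 ± 1.24 CPM in lox/lox livers (SD, n = 3 each). The sulfotransferase genes Chst15 and Chst12 rose by 1.19 and 1.43 on the log2 scale. Dse, the epimerase that turns chondroitin into dermatan sulfate, rose by 0.85, and its relative Dsel and the dermatan sulfotransferase Chst14, both named after their values were seen, by 1.62 and 1.07.

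The linkage region and precursor supply of these chondroitin and dermatan sulfate chains were tested next. Of 12 genes of the linkage region and precursor supply 2 were higher and 2 lower, with a median of -0.20, near the shares of 19.9% and 18.0% called over all genes. The lower count was 1 without Alb-cre replicate 1, 2 or 3 or lox/lox replicate 1, and 3 without lox/lox replicate 3. With library sizes alone 5 were higher and 0 lower, and the median was 0.16. Xylt1, which adds the first sugar to the core protein, rose by 1.66 and stood at 6.73 ± 1.63 CPM in Alb-cre livers and 2.12 ± 0.739 CPM in lox/lox livers (SD, n = 3 each), while Xylt2 stood at 25.5 ± 3.20 CPM in Alb-cre livers and 25.0 ± 2.11 CPM in lox/lox livers and did not pass. The xylose kinase gene Fam20b rose by 0.49. Of 9 tested keratan sulfate genes, whose products build the chains of lumican and fibromodulin, 4 rose and 2 fell. B4galt4 and the sulfotransferase gene Chst2 rose by 1.45 and 1.28, St3gal3 fell by 0.83, and Chst4 had no counts in Alb-cre livers, against 27, 27 and 42 in lox/lox livers.

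Genes for enzymes that process and cut the core proteins were also tested, beside shares of 19.9% higher and 18.0% lower over all tested genes. Among 17 tested processing and cleavage genes 12 were higher and 2 lower, with a median of 1.55, and 13 and 1 with library sizes alone. Leaving out 1 library gave 8 to 10 higher and 1 to 2 lower. The versican-cleaving protease genes Adamts5 and Adamts9 stood at 39.3 ± 3.39 and 37.3 ± 5.43 CPM in Alb-cre livers, against 4.88 ± 1.07 and 8.28 ± 0.288 CPM in lox/lox livers (SD, n = 3 each). The gelatinase gene Mmp2 rose by 3.38 on the log2 scale, and Mmp7, a protease gene of epithelial cells, stood at 158 ± 13.7 CPM in Alb-cre livers and 0.453 ± 0.437 CPM in lox/lox livers. Mmp13, chosen after its value was seen, fell by 2.14. Bmp1, chosen likewise, encodes the protease that trims the ends of procollagen and probiglycan. Its log2 fold change was -0.28 (adjusted p = 0.0489 in edgeR), but 0.086 with library sizes alone (adjusted p = 0.459 in edgeR). The direction of Bmp1 thus depended on the scaling. Its call was also lost with no filter on low counts, with the replicate block, and without any 1 library other than Alb-cre replicate 3.

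Fibre partners of these proteoglycans rose with them. Of 19 tested matrix partners 17 rose and Tnc did not pass, with a median of 2.24. The shares over all tested genes were 19.9% higher and 18.0% lower. Fn1, the fibronectin gene, was lower by the call (log2 fold change -0.48, adjusted p = 0.0153 in edgeR). That call was lost with library sizes alone (-0.11, adjusted p = 0.42 in edgeR) and in every limma fit on FPKM (adjusted p = 0.326). It was also lost without Alb-cre replicate 1 or 2 (adjusted p = 0.0531 and 0.0577 in edgeR). Col6a3 and Col6a1, chains of the collagen VI to which decorin and biglycan bind, rose by 3.02 and 2.17, Fbln2 by 2.38 and Eln by 4.51. Of 22 growth factors and receptors that core proteins bind or act through, 16 were higher and 2 lower, or 17 and 1 with library sizes alone, with a median of 0.80. Tgfbr1, a receptor of transforming growth factor beta, stood at 122 ± 6.14 CPM in Alb-cre livers and 61.3 ± 3.26 CPM in lox/lox livers (SD, n = 3 each). Its partner Tgfbr2 rose by 1.20 on the log2 scale, Igf1r by 2.00 and Ccn2 by 1.84. Of the lower genes, chosen after their values were seen, Met fell by 0.91 and Egfr by 0.43. Egfr lost its call with library sizes alone (-0.058, adjusted p = 0.741 in edgeR) and in every limma fit on FPKM (adjusted p = 0.622 to 0.628). It also lost it with no filter on low counts (adjusted p = 0.0639 in edgeR). The same held without any 1 library other than lox/lox replicate 3 (adjusted p = 0.0503 to 0.112 in edgeR).

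The hyaluronan group, to which versican belongs by its binding, showed no common direction. Among 17 tested genes 3 were higher and 5 lower, with a median of -0.16. With library sizes alone 3 were higher and 2 lower, and the median was 0.21. Over all tested genes, 19.9% were higher and 18.0% lower with TMM factors, with a median of 0.05. Itih5, a heavy chain that is attached to hyaluronan, stood at 90.9 ± 4.70 CPM in Alb-cre livers and 26.8 ± 2.30 CPM in lox/lox livers (SD, n = 3 each), and the hyaluronan receptor gene Cd44 rose by 0.65 on the log2 scale. Hmmr fell by 2.43 and the link protein gene Hapln4 by 1.89. The other large proteoglycans of this family, Acan and Ncan, had no counts in any library, and Bcan was too low to test.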

How the data were processed

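Liver RNA of 6 mice was measured by poly(A) RNA sequencing with dUTP-marked second strands and unique molecular identifiers, per the labels' protocols. The authors deposited 1 table that holds, for each gene and library, a whole-number estimated count and an FPKM. The submitters' processing notes list HISAT2 2.0.4 beside StringTie 1.3.4d, cutadapt 1.9 beside UMI-tools, and both DESeq2 and edgeR, without saying what each did. They name the build mm9, but 51920 (94.16%) of the 55141 gene identifiers found in GENCODE M21 had the same position in GRCm38, which is used here. The deposited FPKM was 0.0001 wherever the count was 0, and such values were set to 0 in sums and shares. Columns named AlbCRE match the genotype label, and wt is the only other genotype.

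The main test ran on the counts with edgeR 4.0.16 under R 4.3.3: filterByExpr (minimum count 10, minimum total 15), TMM factors, genotype as the only term and the quasi-likelihood test, two-sided, with Benjamini-Hochberg adjustment over all 18931 tested genes. All adjusted p-values of single genes come from this test unless another is named. Standard errors were taken from the F statistic. Ratios within a library used FPKM. The FPKM values and their sums are the authors' and carry no TMM factors. On the log2(FPKM + 0.5) scale the median log2 fold change of all tested genes was 0.25, against 0.05 with TMM factors. The members, gene lists and tests were chosen with earlier results of these data known. In each list up to 4 genes with the smallest p were named, beside those marked as named after their values were seen and those given by their counts or lack of a call; in observations the 5 genes with the most similar profile were named. Alternatives were DESeq2 1.42.0, limma 3.58.1 on log2(FPKM + 0.5, 1 or 0.1), other scalings and filters (including a minimum count of 40), counts divided by 4, a replicate block and leaving out each library. The ratios of Omd and the count of 2-fold changes were added after seeing the data. Multiplicity of a read pair in the deposited counts means that no counting intervals are given.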

Additional observations from a re-analysis of the deposited data

How the results depend on the processing

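All 9 tested members kept their direction and their call under every alternative listed in the processing summary, with 8 higher and 1 lower each time. The counts over all genes moved with the scaling: with library sizes alone there were 6459 higher and 1249 lower calls; limma on log2(FPKM + 0.5), (FPKM + 1) and (FPKM + 0.1) called 6671, 6650 and 6667 higher and 1364, 1364 and 1362 lower, against 3767 and 3415 with TMM factors. The median log2 fold change of the tested members was 1.87 with library sizes alone, against 1.51. Over all the other lists together 20 genes were lower on log2(FPKM + 0.1) and 21 with library sizes alone, FPKM + 0.5 or FPKM + 1, against 31. Leaving out 1 library gave 2892 to 3645 higher and 2641 to 3104 lower genes. Without 1 library the log2 difference of the Vcan to Dcn ratio ranged from -0.0065 to 0.47 and that of the Lum to Col1a1 ratio from -0.30 to 0.13.

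Some medians of small lists changed sign. For the other small leucine-rich proteoglycans (-0.22 with TMM) it was 0.15 with library sizes alone, 0.90 with the stricter filter, 0.88 with counts divided by 4, and 0.027, 0.017 and 0.033 in FPKM with pseudocounts 0.5, 1 and 0.1. It was more negative with no filter (-1.31), without Alb-cre replicate 1, 2 or 3 (-1.32, -1.35 and -1.31) and without lox/lox replicate 2 (-1.295). For the hyaluronan list these FPKM values were 0.14, 0.13 and 0.18 and library sizes alone gave 0.21; for the linkage region list they were 0.13, 0.12 and 0.14, and 0.16. The mesothelial median (-0.95) was 1.34 with the stricter filter and 1.34 with counts divided by 4, where fewer genes were tested. The log2 fold change of Bmp1 (-0.28) was 0.086 with library sizes alone and 0.062, 0.060 and 0.064 in FPKM. The keratan sulfate median (0.90) was 0.46 without Alb-cre replicate 1 and 0.43 with the replicate block. The cause of the other changes was not tested.

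Both genotypes use the same replicate numbers, and the sample titles do not say whether same-numbered libraries were paired. Deviations of same-numbered libraries correlated at 0.0163, 0.0634 and 0.0441, and each library correlated best with its own number. With the replicate block 3269 genes were higher and 3207 lower, and the members gave 8 and 1. Depth limits Aspn, which had at most 30 counts in a library.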

Other observations

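Genes outside the family were ranked by how closely their level followed the mean profile of the 9 tested members across the 6 libraries, as the root mean square difference of centred log2(CPM + 0.5) values. Among 13096 genes the smallest differences were 0.0480 for Inpp5d, a phosphatase gene of blood cells, 0.0568 for Ift122, a gene of cilium transport, 0.0582 for 9930111J21Rik2, 0.0602 for the long non-coding RNA Fendrr and 0.0607 for Ccdc57, against a median of 0.682. Inpp5d stood at 51.7 ± 4.08 CPM in Alb-cre livers and 21.2 ± 0.658 CPM in lox/lox livers, and Fendrr at 12.5 ± 1.56 CPM in Alb-cre livers and 5.03 ± 0.330 CPM in lox/lox livers (SD, n = 3 each). The profile includes Omd, whose own difference from it was 1.67, while Dcn, Ogn and Prelp were close to it at 0.0657, 0.0826 and 0.111. These distances rest mainly on the step between the genotypes and describe these libraries only.

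Ranked by mean FPKM among the 18931 tested genes, Dcn stood at place 275 in Alb-cre livers and 930 in lox/lox livers. Lum stood at place 674 in Alb-cre livers and 3876 in lox/lox livers. Omd stood at place 14267 in Alb-cre livers and 8265 in lox/lox livers.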
